A study of Mus musculus with 6 samples.

Results

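The genes described here encode the aminoacyl-tRNA synthetases of the mouse cytosol and mitochondria, together with the scaffold proteins that hold several of them in a complex. They were chosen by name, not by any measured value. All 39 named genes were found among the 24938 listed, namely 20 genes of cytosolic enzymes, 16 of mitochondrial enzymes and 3 of scaffold proteins. RNA was sequenced from NIH3T3, a long-established fibroblast line of mouse embryo origin, in 3 libraries of wild type cells, called control here, and 3 libraries of cells overexpressing F-CircAE. F-CircAE is a circular RNA, a transcript whose ends are joined, related to the leukaemia fusion AML1-ETO. The labels call the controls wild type and name no empty-vector group, so the overexpression procedure and the circular RNA itself cannot be told apart, and the level of F-CircAE was not analysed here. Separate cultures are not stated for the replicates, and every p-value therefore reflects only the library-to-library spread, which may be technical.

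Each synthetase joins one amino acid to its tRNAs, the step that sets which residue a codon adds to a protein. The cytosol and the mitochondrion translate separately, and most amino acids have a cytosolic enzyme and a mitochondrial one from separate nuclear genes. Gars and Kars, for glycine and lysine, serve both compartments from a single gene, and Eprs encodes the glutamyl and the prolyl enzyme in a single protein. When charging falls short, uncharged tRNA activates the kinase GCN2 (gene Eif2ak4), which raises translation of the transcription factor ATF4. ATF4 is known to raise transcription of amino acid synthesis and transport genes and of many cytosolic synthetases.

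Values are FPKM, a level per gene length and per library depth as scaled by the authors. Recovered reads, worked out from the steps of the low FPKM values, totalled 16968281 to 21842328 per library. A member had between 170 reads (Cars2 in one library) and 6961 reads (Gars). These counts cover counting error only, since amplified reads are not independent molecules. Control replicates 1 and 2 were nearly alike, with a chi-square per gene of 1.46 where counting error alone gives a value near 1. The other 14 pairs of libraries lay between 5.15 and 25.1, and all 6 libraries were kept as separate replicates. Of 9 listed fibroblast markers 8 were above 1 FPKM in every library, while their sum ran from 1938 to 2456 FPKM in control and from 1738 to 2142 with overexpression. Summed epithelial markers stayed between 2.75 and 3.73 FPKM in control and between 2.95 and 3.33 with overexpression, and no leukocyte or endothelial marker measured exceeded 0.933 FPKM. The lowest fibroblast sums were those of control replicate 3 (1938) and overexpression replicate 1 (1738), the libraries in which most cytosolic synthetases were highest. Fn1, which encodes fibronectin, had 541, 537 and 319 FPKM in control and 243, 345 and 343 with overexpression, while Vim, which encodes vimentin, had 563, 560 and 606 FPKM and 567, 601 and 665 FPKM. The part of these shifts in the results below was not tested.

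No synthetase or scaffold gene differed between F-CircAE overexpression and control after adjustment over all genes. All 39 members passed the filter of FPKM above 1 in at least 3 libraries and 0 were called, as were 0 of all 12222 tested genes (0%; limma, Benjamini-Hochberg adjusted p under 0.05). The smallest adjusted p among the members was 0.842 (limma). At an unadjusted p under 0.05 there was 1 member of 39 (2.56%), beside 632 of all tested genes (5.17%). Limma-voom on the recovered reads also called 0 members and 0 of 14472 genes, with 2 members and 755 genes at an unadjusted p under 0.05. With array weights, which let libraries count unequally, limma called 7 members, among them Hars, Kars, Rars and Eef1e1, beside 18.3% of all genes. The groups did not overlap in 1 member, Aimp1, which was higher with overexpression. They did not overlap in 11.5% of all tested genes, and 6.81% were higher with overexpression in this way.

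**Figure D1:**
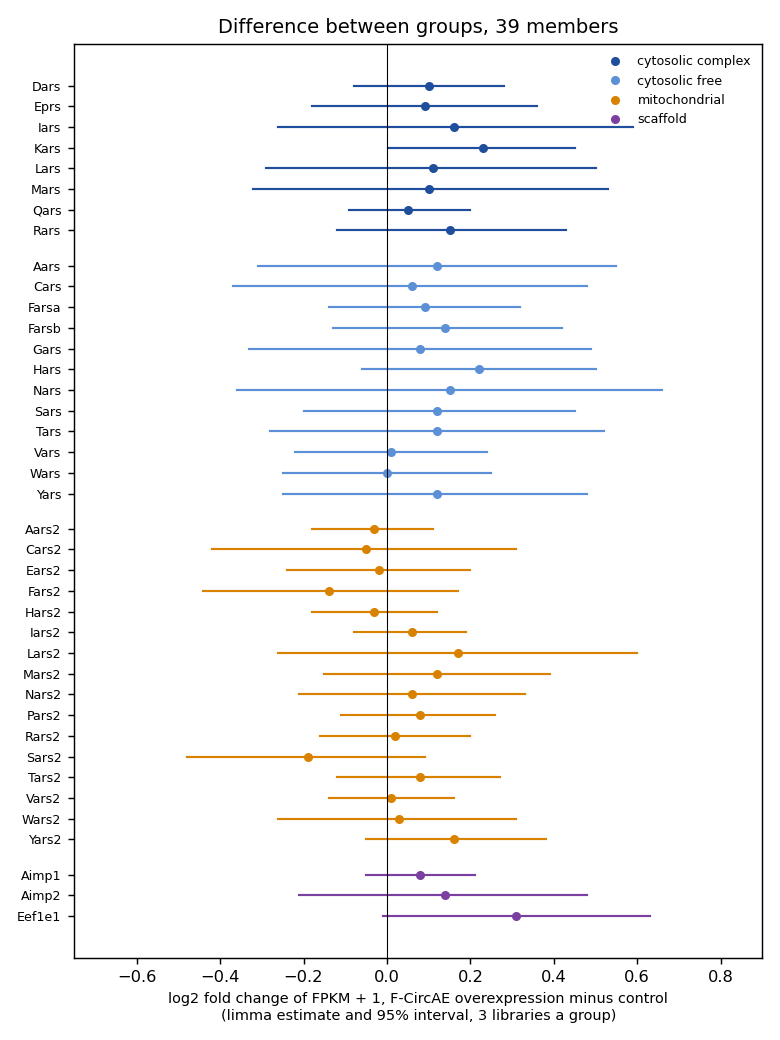
Log2 fold change of FPKM + 1 (horizontal axis, overexpression minus control) for the 39 members (vertical axis), with the limma estimate as a point and its 95% interval as a line, coloured by group. All intervals but that of Kars span 0, and the cytosolic points lie mostly to the right of 0 while the mitochondrial points lie on both sides.

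Estimates of the cytosolic enzymes lay mostly above 0 and those of the mitochondrial enzymes on both sides of 0. The difference between these sets was not tested. Of the 20 cytosolic genes 19 had an estimate above 0, and their log2 fold changes had a median of 0.11 and ran from -0.001 to 0.23. Of the 16 mitochondrial genes 10 were above 0 and 6 below, with a median of 0.02 and a range from -0.19 to 0.17. Across all tested genes 53.2% of estimates were above 0 and the median was 0.008. Standard errors of the cytosolic genes had a median of 0.13, which is above their median estimate. The 95% interval lay within a 1.5-fold change of FPKM + 1 either way for 18 of 20 cytosolic and 15 of 16 mitochondrial genes. The cytosolic median depended on single libraries. It was 0.28 without control replicate 3, 0.03 and 0.04 without control replicates 1 and 2, and 0.06 without overexpression replicate 1, and no member was called in any of these fits. With control replicates 1 and 2 averaged, or without control replicate 1, 15 of 20 cytosolic estimates were above 0, beside 9 and 7 of 16 mitochondrial ones.

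The 8 cytosolic enzymes of the multi-synthetase complex, an assembly held together by the scaffold proteins, all had estimates above 0. Kars, the lysyl enzyme (ENSMUSG00000031948, chromosome 8, 111993443 to 112011323, mm10), had the highest mean FPKM of any member, 94.9 beside 91.4 for Gars. This rank depends on the length used, since the values of Kars implied 2249 bases against 4464 bases of annotated exons. Kars stood at 82.0, 81.1 and 99.4 FPKM in control replicates 1, 2 and 3 and at 109, 98.5 and 99.5 FPKM with overexpression. Control replicate 3 lay between the overexpression libraries, so the groups overlapped. Kars had a log2 fold change of 0.23 (standard error 0.09, unadjusted p = 0.048, limma adjusted p = 0.842). Iars, the isoleucyl enzyme, had 25.8, 26 and 41.1 FPKM in control and 37.2, 31.8 and 33.1 with overexpression. Here control replicate 3 was the highest library, and the SD was 8.78 in control and 2.85 with overexpression (n = 3 each). Rars, the arginyl enzyme, had 40.2, 40.6 and 52.6 FPKM in control and 53.5, 47.7 and 46.7 with overexpression. Eprs had the lowest level of the complex, at 11, 10.9 and 14.6 FPKM in control and 13.7, 12.3 and 12.7 with overexpression. Its annotated exons span more bases than those of any other member, and FPKM divides by that length. Qars, the glutaminyl enzyme, was nearly level across libraries, at 21.4, 21.7 and 20.9 FPKM in control and 21.1, 22 and 23.6 with overexpression. For Qars alone among the 20 cytosolic genes, control replicate 3 was not above the other controls.

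The other 12 cytosolic genes encode enzymes outside that complex. Gars, the glycyl enzyme, had 74.8, 77.6 and 117 FPKM in control and 103, 84.9 and 91.7 with overexpression. Tars, the threonyl enzyme, had 63.1, 68.0 and 99.6 FPKM in control and 89.1, 76.1 and 81.9 with overexpression. In both genes control replicate 3 lay above all overexpression libraries, and control replicates 1 and 2 lay below them. Hars, the histidyl enzyme, had the largest estimate of these genes, at 26.4, 25.6 and 33.9 FPKM in control and 36.6, 32.7 and 30.9 with overexpression. Hars had a log2 fold change of 0.22 (95% interval -0.06 to 0.50, limma adjusted p = 0.842). Nars, the asparaginyl enzyme, spread most widely of the cytosolic genes, with its highest library 1.68 times its lowest. It had 58.8, 58.7 and 98.7 FPKM in control and 90.4, 72.6 and 71.3 with overexpression (log2 fold change 0.15, 95% interval -0.36 to 0.66). Farsa, which encodes the catalytic subunit of the phenylalanyl enzyme, had 12.4, 12.4 and 15.4 FPKM in control and 15.6, 13.6 and 13.7 with overexpression. Wars, the tryptophanyl enzyme, was the only cytosolic gene with an estimate below 0 (-0.001, 95% interval -0.25 to 0.25).

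The order of the libraries was shared by nearly all cytosolic enzymes. Control replicates 1 and 2 were the 2 lowest libraries for 18 of 20 cytosolic genes and for 3 of 16 mitochondrial genes, beside 18.3% of all tested genes. Control replicate 3 was the highest library for 13 of 20 cytosolic and 7 of 16 mitochondrial genes, beside 17.9% of all tested genes. These 13 were the cytosolic genes grouped, from general knowledge but with earlier results of these data known, as induced in the amino acid response. They are Aars, Cars, Eprs, Gars, Iars, Lars, Mars, Nars, Sars, Tars, Vars, Wars and Yars. Control replicate 3 was highest for none of the remaining 7, which are Dars, Farsa, Farsb, Hars, Kars, Qars and Rars. For 6 of these 7 overexpression replicate 1 was the highest. Control replicate 3 is a single library, so its difference from the other controls has no replicate check, and the 13 genes share its RNA and are not independent points.

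**Figure D2:**
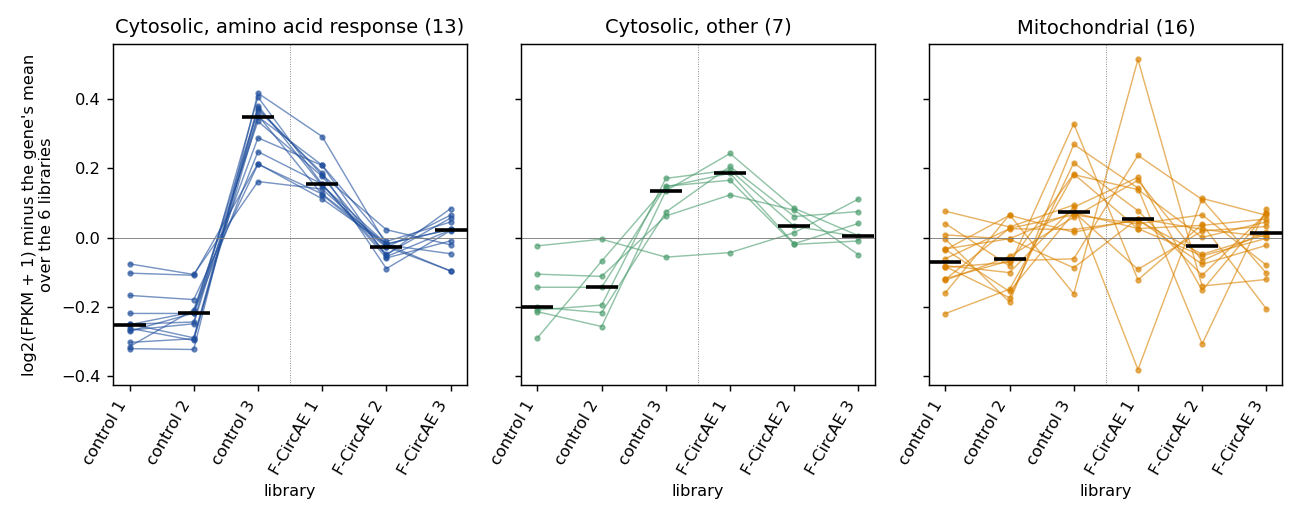
Each line is a gene and shows its log2(FPKM + 1) minus its own mean over the 6 libraries (vertical axis) in each library (horizontal axis), for 13 and 7 cytosolic genes and 16 mitochondrial genes; black bars are medians, and the libraries of a group have no order. The cytosolic medians run from -0.25 in control replicate 1 to 0.35 in control replicate 3 for the 13 genes, and the mitochondrial medians stay between -0.07 and 0.07.

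In log2(FPKM + 1) relative to each gene's mean over the 6 libraries, the 13 amino acid response enzymes had medians of -0.25, -0.22 and 0.35 in control replicates 1, 2 and 3. With overexpression they had 0.16, -0.03 and 0.02. The 7 other cytosolic genes had -0.20, -0.14 and 0.14 in control and 0.19, 0.03 and 0.005 with overexpression. Mitochondrial enzymes had -0.07, -0.06 and 0.07 in control and 0.05, -0.02 and 0.01 with overexpression. In both cytosolic sets the controls thus held the lowest libraries as well as a high one. Without control replicate 3, 16 cytosolic, 1 mitochondrial and 2 scaffold genes had an unadjusted p under 0.05, which is 19 of 39 members beside 15.4% of the genes tested in that fit. That fit leaves as controls the pair of nearly alike libraries, and it leaves out the library that was highest in most cytosolic genes. The count was 2 members without overexpression replicate 3, beside 8.26% of the genes tested in that fit. It was 0 without any other single library or with control replicates 1 and 2 averaged, beside 1.96% to 4.82% of genes. None of the 19 passed adjustment without control replicate 3 (smallest limma adjusted p among the members 0.202).

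ATF4 binds DNA with partners of the C/EBP family at a response element whose core was searched for here as TGATGNAA, or TTNCATCA on the other strand. The windows were RefSeq promoters (GRCm38.p6), from 250 bases before to 50 bases after each annotated start. A window was found for 30 of the 39 members. The letters occurred in 5 of the 8 amino acid response enzymes with a window, and in 0 of 5 other cytosolic enzymes, 0 of 14 mitochondrial enzymes and 0 of 3 scaffold genes. They occurred in 4.51% of all 27025 genes with a window, and in 3.97% of all 32851 windows. Of the 24 other amino acid response genes with a window, 7 (29.2%) held them. A match is a description of the letters and not a binding site, and these RNA data do not measure binding. The stretches below are shown because they hold those letters, in capitals, in some of the enzymes that were highest in control replicate 3. Asns, which encodes asparagine synthetase, is printed beside them as a known gene of the same response. Each runs 5′ to 3′ on the gene's strand, and starts are those of RefSeq, while GENCODE begins Tars, Iars, Yars and Asns further upstream.
Gars (chr6:55037921-55038000, plus strand, first capital 30 bases before the start): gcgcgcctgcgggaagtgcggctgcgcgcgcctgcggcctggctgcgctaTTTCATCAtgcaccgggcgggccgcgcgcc
Tars (chr15:11399659-11399738, minus strand, 15 bases before the start): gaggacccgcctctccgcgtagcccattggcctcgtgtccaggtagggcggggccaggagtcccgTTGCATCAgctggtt
Iars (chr13:49682126-49682155, plus strand, at base 8 from the start): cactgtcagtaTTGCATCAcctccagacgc
Yars (chr4:129189895-129189924, plus strand, at base 4 from the start): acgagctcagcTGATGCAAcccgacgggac
Asns (chr6:7693214-7693243, minus strand, 23 bases before the start): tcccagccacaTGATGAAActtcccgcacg

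The 5 enzymes with these letters had their highest level in control replicate 3, as did Asns. All 13 amino acid response enzymes did so, and only 8 of them had a window to search. Any link between the letters and the order of libraries was not tested. Aars, the alanyl enzyme, had 23.8, 23.2 and 37.5 FPKM in control and 32.7, 29.2 and 28.3 with overexpression. The exons of Aars share 1326 bases with Exosc6 on the same strand. Exosc6 is not among the listed genes, so its reads may be counted in Aars. Yars, the tyrosyl enzyme, had 18.2, 18.7 and 26.9 FPKM in control and 25.4, 21 and 22.2 with overexpression. Mars and Sars, the methionyl and seryl enzymes, followed the same order of libraries and were not among the 5 enzymes found with the letters. Mars stood at 27.9, 27.1 and 43.7 FPKM in control and 37.1, 32.9 and 33.9 with overexpression. The exons of Mars overlap those of Ddit3 on the other strand by 68 bases, so part of their reads cannot be told apart if strand was not used.

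Mitochondrial enzymes were present at lower levels than cytosolic enzymes. Their FPKM, averaged over the 6 libraries, had a median of 6.1 and ran from 2.08 to 49.3, against a median of 30.1 and a range from 12.5 to 94.9 for the cytosolic genes. Medians of the cytosolic genes were 26.1, 26.5 and 36.1 FPKM in control and 34.7, 30.5 and 30.1 with overexpression. Those of the mitochondrial genes were 5.87, 5.96 and 6.91 in control and 6.12, 6.34 and 6.05 with overexpression. The difference of the medians of log2(FPKM + 1) was 1.98, 1.99 and 2.23 in control and 2.32, 2.10 and 2.14 with overexpression. FPKM is per length, and for 10 members the values implied a length other than the total of their annotated exons.

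For 16 amino acids a cytosolic and a mitochondrial gene could be set side by side, which gives 17 pairs because the cytosolic phenylalanyl enzyme has 2 subunits. The cytosolic gene was higher in all 6 libraries in 16 of the 17 pairs. The median over pairs of the mean ratio was 4.59. Asparagine had the widest ratio, with Nars between 30.9 and 43.7 times Nars2 across libraries. Nars2 was the lowest member, at 1.9, 1.86 and 2.26 FPKM in control and 2.46, 1.76 and 2.22 with overexpression. For phenylalanine Farsa was 1.43 to 2.58 times Fars2. The highest of these ratios came from overexpression replicate 1, where Fars2 stood at 6.03 FPKM beside 8.35 to 8.9 in the other libraries. The ratios depend on the length used, since the values of Fars2 implied 2125 bases against 5747 bases of annotated exons.

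**Figure D3:**
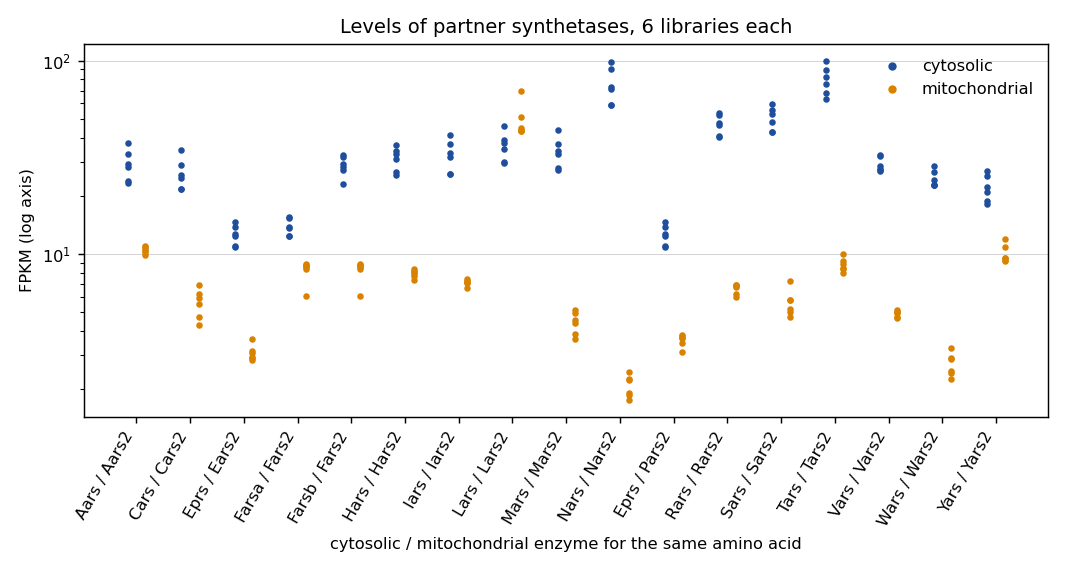
FPKM on a log axis (vertical) for the cytosolic gene and the mitochondrial gene of each amino acid (horizontal), with 1 point per library. Cytosolic points lie above mitochondrial points in every pair except Lars and Lars2, and the gap is widest for Nars and Nars2.

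Leucine was the exception, with Lars between 0.56 and 1.06 times Lars2. The values of Lars and Lars2 implied lengths of 3856 and 3881 bases, against 5368 and 11089 bases of annotated exons. The order of this pair therefore depends on the length used. Lars2 (ENSMUSG00000035202, chromosome 9, 123366927 to 123462666) had 43.4, 50.9 and 43.3 FPKM in control and 69.8, 44 and 44.6 with overexpression. Only overexpression replicate 1 stood well above the rest, and the log2 fold change of 0.17 (95% interval -0.26 to 0.60) became -0.04 without that library. Aars2, the next highest mitochondrial gene, had 10.2, 11 and 10.6 FPKM in control and 10.9, 9.88 and 10.3 with overexpression. Its libraries differed by at most 1.12 times. The rank of Aars2 also depends on the length used, since its values implied 3348 bases against 4765 bases of annotated exons. Sars2, the mitochondrial seryl enzyme, had the lowest estimate of all members at -0.19 (95% interval -0.48 to 0.09, limma adjusted p = 0.843). It stood at 5.75, 5.2 and 7.24 FPKM in control and 5.03, 5.74 and 4.69 with overexpression, so the groups overlapped. Mars2, the methionyl enzyme of mitochondria, was one of 3 mitochondrial genes with the cytosolic order, in which control replicates 1 and 2 are lowest. It had 3.62, 3.85 and 5.1 FPKM in control and 4.92, 4.38 and 4.55 with overexpression. Ears2 and Pars2, the glutamyl and prolyl enzymes, were the others. Within a gene the highest library was a median of 1.30 times the lowest in mitochondrial enzymes and 1.42 times in cytosolic enzymes, beside 1.27 times over all tested genes. Reads of 13 members could include some from a listed gene on the other strand, since their exons overlap and the use of strand is not given in the sources used here. Hars and Hars2 overlap each other by 195 bases, and Iars2 overlaps Rab3gap2 by 2034 bases.

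The 3 scaffold genes had estimates above 0. Eef1e1, a scaffold also named for its likeness to elongation factor subunits (ENSMUSG00000001707, chromosome 13, 38644207 to 38659058), had the largest estimate of all 39 members. It stood at 34.4, 34.4 and 46.4 FPKM in control and 52.8, 47.4 and 42.4 with overexpression. Control replicate 3 lay among the overexpression libraries. Eef1e1 had a log2 fold change of 0.31 (standard error 0.14, 95% interval -0.01 to 0.63, limma adjusted p = 0.842). Aimp2 had 11.5, 11.5 and 16.4 FPKM in control and 16.1, 14.3 and 12.8 with overexpression, and here control replicate 3 was the highest library. Aimp1, whose protein is also cut to a secreted cytokine, had 19.2, 19.4 and 19.6 FPKM in control and 19.8, 20.3 and 21.7 with overexpression. It was the only member whose groups did not overlap, and its means of 19.4 ± 0.17 and 20.6 ± 0.956 FPKM (SD, n = 3) differed little. For Aimp1 this gave 0.08 on the log2 scale (95% interval -0.05 to 0.21, limma adjusted p = 0.843).

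Other genes of the amino acid response showed control replicate 3 highest as well, without a common direction between groups. Control replicate 3 was the highest library for 23 of the 26 genes. Their estimates were above 0 for 12 and below 0 for 14, with a median of -0.03, and 0 were called. Atf4 had 205, 208 and 281 FPKM in control and 220, 231 and 208 with overexpression. Asns had 46.1, 47.4 and 103 FPKM in control and 71.5, 61.6 and 68.3 with overexpression. Chac1, which degrades glutathione, had 8.93, 9.64 and 25.3 FPKM in control and 15.9, 18.9 and 14.6 with overexpression. For Asns and Chac1 control replicates 1 and 2 were the lowest libraries, as for the cytosolic synthetases. Trib3, a feedback inhibitor of ATF4, had 15.0, 15.9 and 36.2 FPKM in control and 14.0, 20.4 and 18.5 with overexpression. Ddit3, the stress factor CHOP, had 8.73, 9.4 and 16.8 FPKM in control and 8.31, 9.74 and 9.66 with overexpression. In Trib3 and Ddit3 overexpression replicate 1 was the lowest library, which was so for none of the cytosolic synthetases. The list's smallest p values belonged to Cebpb and Nupr1, both transcription regulators, with log2 fold changes of -0.18 and -0.21 (limma adjusted p = 0.842 and 0.845).

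**Figure D4:**
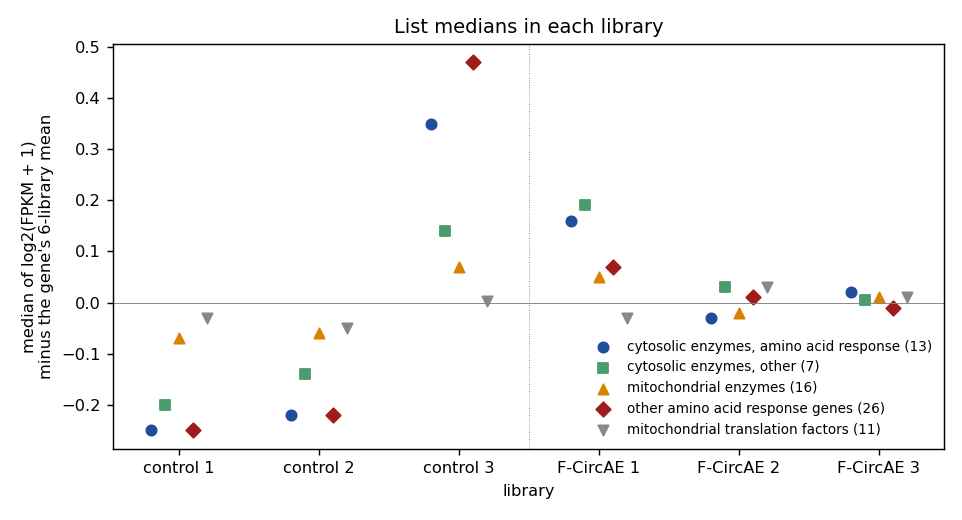
Median over each list of log2(FPKM + 1) minus the gene's 6-library mean (vertical axis) in each library (horizontal axis). Amino acid response genes reach 0.47 and the matching cytosolic enzymes 0.35 in control replicate 3, where mitochondrial translation factors stand at 0.003.

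Among the remaining genes of tRNA charging and use none was called, and estimates ran from -0.33 for Prorsd1 to 0.24 for Eif5a. Estimates lay above 0 in all 6 cytosolic elongation genes, and their median was 0.09. Among them Eef1g, an exchange factor subunit, had 397, 403 and 446 FPKM in control and 466, 448 and 468 with overexpression (limma adjusted p = 0.842). Eif5a, which helps ribosomes past stalling residues, had 369, 375 and 464 FPKM in control and 529, 472 and 425 with overexpression. Of 11 mitochondrial translation factors 9 were above 0, with a median of 0.04. Mtfmt, which formylates the mitochondrial initiator methionyl-tRNA, and Mrrf, which recycles ribosomes, had the smallest p of that list, with log2 fold changes of 0.11 and 0.09. The mitochondrial amidotransferase, which completes glutaminyl-tRNA where no mitochondrial glutaminyl enzyme exists, is encoded by Gatb, Gatc and Qrsl1. Its 3 genes had a median of -0.02. Qrsl1 and Gatc stood at -0.07 and 0.05. Of 7 tested genes of tRNA maturation and quality control 5 were above 0. Groups did not overlap in Prorsd1, related to the editing domain of prolyl enzymes, nor in Eef1g and Cebpb, beside 11.5% of all tested genes. Prorsd1 was low, at 52 to 106 reads per library, with 2.41, 1.72 and 2.6 FPKM in control and 1.44, 1.55 and 1.71 with overexpression. Its log2 fold change was -0.33 with an unadjusted p of 0.037 and an adjusted p of 0.842 (limma), and Dtd1, a tRNA deacylase, stood at 0.08. Selenocysteinyl-tRNA genes had a median of -0.02 over 4 genes, with Secisbp2 at -0.08 and Pstk at 0.06. The 4 genes listed with the sensing of uncharged tRNA by GCN2 had a median of 0.08. Impact stood at 0.09 and Eif2ak4, which encodes GCN2, at 0.06. No gene of these lists was called.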

How the data were processed

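DNase-treated RNA was made into libraries with a NEBNext Ultra kit, per the labels' protocols. The build was mm10, per the submitters' processing notes; the aligner, counting program, annotation and strand setting were not given in the sources used here. The deposited files hold FPKM per Ensembl gene ID, per the file headers, computed by the authors. Symbols, coordinates and exon lengths came from GENCODE M21, which named 24816 of 24938 IDs. Groups came from the genotype label. Differences came from limma 3.58.1 (R 4.3.3; trend, robust), fitted on log2(FPKM + 1) to group alone. It covered the 12222 genes for which 3 or more libraries exceeded 1 FPKM. Fold changes on this scale understate those of low genes. Calls used a Benjamini-Hochberg adjusted p of 0.05, and the fit was tested on simulated data.

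FPKM steps were turned into whole reads within 0.01 reads. The annotated exon length gave whole reads for 19832 genes (79.5%) and a searched length for 5105, which is no independent check there; 1 gene gave none. Of the members 29 used the annotated length. Scaling by median-of-ratios size factors of those reads would match the FPKM scales to within 0.0017%. Chi-square per gene used genes of at least 20 reads in a pair. Promoters were searched in Python 3.11.15. The stretches of 1 member are not reported here.

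Members and lists were chosen with earlier results of these data known. Values are printed for members at an unadjusted p under 0.05, members whose groups did not overlap, and, in each of the complex, free, mitochondrial and scaffold groups, the 2 largest differences, the 2 highest levels and the lowest level. The 2 smallest p of each other list, Atf4, Asns, Ddit3, Trib3 and Chac1 were named too. Qars, Wars, Aars, Yars, Mars, Mars2 and Fars2, and the order of libraries as a measure, were chosen after their values were seen. Alternatives were 2 pseudocounts, 2 filters, 3 scalings, a replicate block, array weights, averaged control replicates 1 and 2, leaving out each library, and limma-voom on genes with at least 10 reads in 3 libraries.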

Additional observations from a re-analysis of the deposited data

How the results depend on the processing

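The count of 0 called members held under all 17 alternatives except array weights, which called 7 of 39 (Dars, Hars, Kars, Rars, Yars2, Aimp2 and Eef1e1) beside 2241 of all 12222 genes (18.3%). Leaving out libraries gave 0 to 2 called genes and 0 called members, and the members' smallest adjusted p ran from 0.202 to 1 (limma). The cytosolic median ran from 0.03 to 0.28 and the mitochondrial median from -0.01 to 0.07 when libraries were left out. With control replicates 1 and 2 averaged the medians were 0.03 and 0.0003. With equal FPKM sums, where the median of all genes was -0.05, they were 0.05 and -0.03. The cytosolic minus mitochondrial level, 2.13 as the mean over libraries, was 2.28 with a pseudocount of 0.1, 1.66 with 5, 1.82 with a filter at 5 FPKM and 2.30 per length from recovered reads. Control and overexpression libraries share replicate numbers, but their deviations correlated at -0.10, 0.08 and 0.00, so the numbers were not taken as pairs. With the replicate block 0 genes and 0 members were called, the cytosolic median was 0.11, and 444 genes had an unadjusted p under 0.05.

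The estimate kept its sign under every alternative in 13 of 20 cytosolic, 5 of 16 mitochondrial and 3 of 3 scaffold genes; the cause of the reversals was not tested. Under array weights the sign turned for Wars (0.07), Ears2 (0.02), Fars2 (0.03), Hars2 (0.03), Lars2 (-0.06), Nars2 (-0.03), Sars2 (0.01) and Vars2 (-0.02). With averaged controls it turned for Cars (-0.05), Gars (-0.02), Mars (-0.004), Vars (-0.03) and Wars2 (-0.03). With equal FPKM sums it turned for Cars (-0.01), Qars (-0.01), Vars (-0.05), Iars2 (-0.002), Rars2 (-0.04), Vars2 (-0.05) and Wars2 (-0.02). Equal upper quartiles turned Wars (0.002), and quantile normalization turned Vars (-0.03) and Ears2 (0.01). Leaving out libraries gave ranges across 0 for Cars (-0.06 to 0.27), Gars (-0.03 to 0.28), Mars (-0.01 to 0.32), Tars (-0.002 to 0.32), Vars (-0.06 to 0.10), Wars (-0.06 to 0.11), Cars2 (-0.16 to 0.09), Ears2 (-0.07 to 0.07), Fars2 (-0.23 to 0.02), Hars2 (-0.05 to 0.01), Lars2 (-0.04 to 0.28), Nars2 (-0.01 to 0.15), Rars2 (-0.04 to 0.06), Vars2 (-0.02 to 0.03) and Wars2 (-0.05 to 0.14). Depth was at least 170 reads per member and library, the fewest being in Cars2.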
